A study of Mus musculus with 6 samples.

Results

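Chemokine receptors are cell surface receptors with G protein signalling that steer the migration of blood cells, and 8 of their genes were followed here: Cxcr4, Cxcr2, Cxcr3, Cx3cr1, Ccr1, Ccr2, Ccr7 and Ccr9. Members were all probe sets of the deposited value table whose annotation gives a single gene symbol and names one of these genes. This gave 17 of the 45037 probe sets tested, standing for 8 of 18193 named genes. Gene expression was measured on Affymetrix arrays in 3 dKO and 3 control samples of bone marrow progenitors. The sort took cells without lineage markers that carried Sca1, CD150 and CD48, and the study calls them committed progenitors. The dKO mice carried MxCre with floxed c-myc and N-myc alleles, and the control mice carried the same floxed alleles without MxCre. The Mx promoter that drives Cre responds to interferon in many cell types, so deletion is not confined to the sorted cells, and the transgene's own effect and loss of both genes cannot be told apart. All mice, dKO and control, were 8 weeks old, of mixed background and treated with pI-pC, which induces interferon, on 2 days, with the last dose 3 days ahead of harvest. Each dKO array holds a pool of 3 mice and each control array a pool of 2, so errors describe the spread between pools. The tissue label of control pool 1 names LT-HSCs, whereas its title and gate match the other arrays.

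Each of these receptors binds chemokines, couples to inhibitory G proteins and is switched off by receptor kinases, arrestins and RGS proteins. Cxcr4 and its ligand Cxcl12 are best known for holding stem and progenitor cells in the marrow. Cxcr2 draws neutrophils towards inflammatory chemokines and favours their release from marrow. Ccr2 and Cx3cr1 mark monocytes and their precursors, Ccr1 is found on myeloid cells, Cxcr3 on activated T and NK cells, Ccr7 on cells bound for lymph nodes and Ccr9 on cells bound for thymus and gut.

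Values are log2 RMA values made by the authors, so a difference of 1 is a doubling. The targeted genes were checked first. Myc had 7.99, 7.87 and 7.44 in dKO pools 1 to 3, against 10.79, 10.95 and 10.47 in control pools 1 to 3, and fell by 2.97 ± 0.22 (SE; limma, adjusted p = 0.000458). One Mycn probe set fell by 5.27 (adjusted p = 0.00029), while its brightest had a log2 fold change of -0.83 (adjusted p = 0.184) and the remaining set one of 0.34 (adjusted p = 0.427). A probe set outside the deleted exons checks nothing, and the positions of these sets were not used here. Of the sort gate, Slamf1, which encodes CD150, averaged 9.1 in dKO and 8.31 in control, and Cd48 averaged 11.43 in dKO and 11.23 in control. Neither passed (adjusted p = 0.327 and 0.697). Kit, the stem cell factor receptor, which the labels do not name in the gate, averaged 8.95 in dKO and 9.24 in control by its brighter probe set (adjusted p = 0.548), and Ly6a, which encodes Sca1, was not analysed here. Array medians lay between 5.9 and 5.94, and the lower quartile was 4.47 in dKO 3, against 4.23 to 4.31 in the other arrays. The pools dKO 1 and control 1 carried Xist signal (10.5 and 9.1), and the other pools stood between 5.03 and 5.86.

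Of the receptors, Cxcr2 was the one that changed past the threshold: it was 2.67-fold higher in dKO progenitors. In the fit across all probe sets, 1 of the 17 receptor probe sets was higher and 0 were lower at an adjusted p of 0.05 (limma), where 3.6% of all probe sets passed, 1.83% upwards and 1.78% downwards. At an unadjusted p under 0.05 there were 7 of 17, against 15.9% of all probe sets. The 3 dKO and 3 control arrays did not overlap for 5 receptor probe sets, 2 higher and 3 lower in dKO, where 21.3% of all probe sets did not overlap, 10.7% upwards and 10.6% downwards. These 5 were the brightest probe sets of Cxcr2, Cxcr3, Cxcr4, Ccr2 and Cx3cr1. Taking each gene by its brightest probe set, 1 of 8 receptor genes passed, against 4.49% of named genes, and the arrays of 5 of 8 did not overlap, against 23.4% of named genes, 12.7% upwards and 10.7% downwards. At an unadjusted p under 0.05 there were 6 of 8 genes, against 17.3% of named genes. The median log2 fold change was -0.27 over the 8 genes and 0.05 over all named genes.

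**Figure D1:**
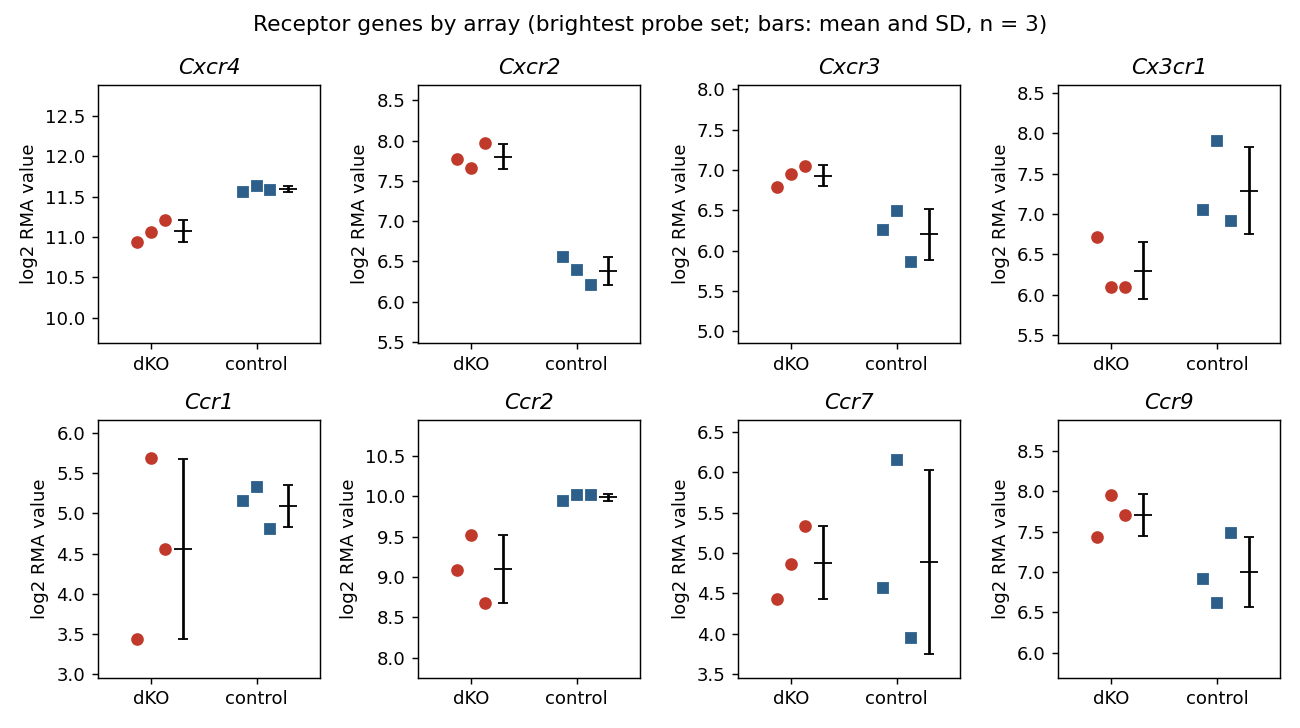
Log2 RMA values of the brightest probe set of each receptor gene, with dKO arrays as red circles and control arrays as blue squares; black bars give the mean and SD of 3 arrays, and every panel spans the same log2 range. All dKO arrays lie above all control arrays for Cxcr2 and Cxcr3 and below them for Cxcr4, Cx3cr1 and Ccr2, and Cxcr2 has the widest gap (1.12).

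The regions around the gene starts of Cxcr2, the gene that rose, and of Cxcr4, the marrow retention receptor, are shown because they differ in the sequence motifs searched. Each runs from 250 bases before to 50 bases after the start of the gene and is given 5′ to 3′ on the gene's own strand, from RefSeq on build GRCm38.p6. The Cxcr2 stretch lies on the plus strand at chr1:74153744-74154043 and the Cxcr4 stretch on the minus strand at chr1:128592250-128592549. Capitals mark matches to CANNTG in Cxcr2, and, in Cxcr4, to the NRF1 motif and the TATA box.
Cxcr2: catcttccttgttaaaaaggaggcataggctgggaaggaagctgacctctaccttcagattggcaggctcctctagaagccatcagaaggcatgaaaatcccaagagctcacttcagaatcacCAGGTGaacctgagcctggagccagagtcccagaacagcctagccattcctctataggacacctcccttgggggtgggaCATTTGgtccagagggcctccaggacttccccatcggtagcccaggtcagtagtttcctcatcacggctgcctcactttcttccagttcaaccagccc
Cxcr4: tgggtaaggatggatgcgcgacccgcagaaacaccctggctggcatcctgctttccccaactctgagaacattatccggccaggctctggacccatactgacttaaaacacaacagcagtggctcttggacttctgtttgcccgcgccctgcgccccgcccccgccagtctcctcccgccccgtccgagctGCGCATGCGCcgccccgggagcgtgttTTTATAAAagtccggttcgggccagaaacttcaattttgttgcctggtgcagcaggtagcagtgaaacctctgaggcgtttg
A RefSeq stretch was matched for 7 of the 8 receptors, and Ccr7 is only named. CACGTG, the E-box bound by MYC and MAX, was in 0 of these 7 stretches and in 7.17% of all 32544 such stretches. CANNTG, the wider E-box that includes CACGTG, was in 6 of 7, all but Cxcr4, and in 72.3% of all. The NRF1 motif, GCGCA followed at once by its reverse complement TGCGC, was in Cxcr4 alone among the 7, 59 bases before the gene start, and in 0.974% of all. The TATA box, TATAAA or on the other strand TTTATA, was also in Cxcr4 alone, and in 13.6% of all. Both strands were searched. These are letters in short windows and say nothing of binding.

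Cxcr2, the neutrophil receptor for CXC chemokines such as Cxcl1 and Cxcl2, had 7.77, 7.66 and 7.97 in dKO pools 1 to 3, against 6.55, 6.39 and 6.21 in control pools 1 to 3. The groups lay 1.12 apart at their nearest arrays, and neither group spread by more than 0.35. The log2 fold change was 1.42 ± 0.18 (SE), with a 95% interval of 1.01 to 1.83 and an adjusted p of 0.00479 (limma). Leaving out each pool in turn gave 1.33 to 1.5 with adjusted p from 0.0139 to 0.0303. The gene has 1 probe set, and its close relative Cxcr1 was not analysed here.

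No neutrophil marker passed beside Cxcr2. Of 11 measured neutrophil markers 0 passed in limma in either direction, against 4.49% of named genes, and 4 had an unadjusted p under 0.05, against 17.3%. The median log2 fold change was -0.57. Their mean level was 5.21 to 6.38 in dKO arrays, against 6.63 to 6.65 in control arrays. Mpo, the myeloperoxidase of granulocyte precursors, had a log2 fold change of -2.04 (adjusted p = 0.192), with 7.67 in dKO 1 and at least 10.22 in every other array. Ngp, a neutrophil granule protein gene, had -0.57 (adjusted p = 0.175) and S100a9, a subunit of calprotectin, -1.7 (adjusted p = 0.194). Several markers of other lineages rose, where 2.45% of named genes did. Selp, a platelet adhesion receptor, rose by 3.52 and Itgb3, a platelet integrin chain, by 2.0, while Cma1 and Mcpt8, mast cell and basophil proteases, rose by 2.53 and 2.42. The mean level of 8 megakaryocyte markers was 9.24 to 9.55 in dKO, against 7.59 to 7.70 in control, and 5 of 8 rose. That of 7 mast cell and basophil markers was 8.25 to 9.24 in dKO, against 6.92 to 6.98 in control, and 5 of 7 rose. The part of these markers in the Cxcr2 result was not tested. In bulk samples such as these, more cells of a type and more RNA per cell cannot be told apart.

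Among 10157 other genes with a mean of at least 6, the profile over the 6 arrays most like that of Cxcr2, after centring each gene on its own mean, was that of Pf4, platelet factor 4. Its root mean square difference from Cxcr2 was 0.0722 on the log2 scale. Vamp5, a vesicle membrane protein gene, followed at 0.0862, and Itga2b, the platelet integrin chain CD41, at 0.118. Their log2 fold changes were 1.53, 1.35 and 1.51, beside 1.42 for Cxcr2. With 6 arrays in 2 groups, this likeness mostly reflects a shared size of difference.

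Cxcr4, the receptor for Cxcl12, stood at 10.94, 11.06 and 11.21 in dKO pools 1 to 3, against 11.56, 11.63 and 11.58 in control pools 1 to 3. All dKO arrays were lower, and the control arrays spread by less than 0.1. The log2 fold change was -0.52 ± 0.16 (SE), with a 95% interval of -0.89 to -0.14, and did not pass (limma, adjusted p = 0.151). With a trended and robust variance it did (adjusted p = 0.0218). The scavenger receptor Ackr3, which also binds Cxcl12, had a log2 fold change of -0.74 (limma, adjusted p = 0.292). It was dim, with means of 2.69 in dKO and 3.43 in control, where the lowest value on any array was 1.53. Cxcl12 itself had a log2 fold change of -0.43 by its brightest probe set (limma, adjusted p = 0.698) and of -0.05 and 0.05 by its others.

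Cxcr3, a receptor of activated T and NK cells on chromosome X, had 6.79, 6.95 and 7.05 in dKO pools 1 to 3, against 6.25, 6.49 and 5.86 in control pools 1 to 3. All dKO arrays were higher, by 0.30 at the nearest arrays. The log2 fold change was 0.73 ± 0.21 (SE), with a 95% interval of 0.26 to 1.20, and did not pass (limma, adjusted p = 0.106). It was 0.83 without both pools with Xist signal (adjusted p = 0.314). Of 14 markers shared by T and NK cells or typical of either, 8 rose, against 2.45% of named genes, among them Gzmb, a cytotoxic granule protease (5.54), and Nkg7, a granule membrane protein gene (1.94). Their mean level was 8.12 to 8.32 in dKO, against 6.25 to 6.86 in control. The T cell marker Cd8a had a log2 fold change of -0.36 (adjusted p = 0.613). The part of these cells' RNA in the Cxcr3 values was not tested.

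Ccr2, the receptor that lets monocytes leave the marrow, had 4 probe sets, each with a negative log2 fold change (-0.89 to -0.49). The brightest stood at 9.09, 9.52 and 8.68 in dKO pools 1 to 3, against 9.94, 10.02 and 10.01 in control pools 1 to 3. The control arrays were nearly equal, and all dKO arrays lay below them. Its log2 fold change of -0.89 ± 0.23 (SE; 95% interval -1.42 to -0.37) did not pass (limma, adjusted p = 0.0791). It passed in 5 of 11 other settings, among them adjustment over 1 probe set per gene (adjusted p = 0.0496). The mean of the 4 probe sets did not pass (-0.62, adjusted p = 0.199). With single arrays left out, the brightest passed only without dKO 2 (-1.11, adjusted p = 0.0424). The other probe sets had log2 fold changes of -0.49, -0.61 and -0.49, and their arrays overlapped between the groups. Probe sequences were not used here, so values of receptors with close relatives are uncertain as those of a single gene.

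Cx3cr1, the fractalkine receptor of monocytes and macrophages, had a brighter probe set at 6.71, 6.09 and 6.09 in dKO pools 1 to 3, against 7.05, 7.91 and 6.91 in control pools 1 to 3. All dKO arrays were lower, with 0.19 between the nearest arrays. The log2 fold change was -0.99 ± 0.30 (SE), with a 95% interval of -1.67 to -0.31, and did not pass (limma, adjusted p = 0.132). The dimmer probe set had a log2 fold change of -0.52 (adjusted p = 0.534), and its arrays overlapped.

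Ccr1, a myeloid receptor for Ccl3 and Ccl5, was measured near the dim end. Its brighter probe set stood at 3.44, 5.68 and 4.55 in dKO pools 1 to 3, against 5.15, 5.32 and 4.80 in control pools 1 to 3. The dKO arrays spanned the control arrays on both sides. The log2 fold change was -0.54 (95% interval -1.63 to 0.56; limma, adjusted p = 0.683), and 0.02 without dKO 1. The dimmer probe set had a log2 fold change of -0.35 (adjusted p = 0.71), or 0.01 without control 2.

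Beside these monocyte and myeloid receptors, 8 of 10 monocyte and macrophage markers fell and 0 rose, against 2.03% of named genes that fell. Klf4, a transcription factor that monocytes need, fell by 4.69, F13a1, a clotting factor subunit made by monocytes, by 3.8, and Ly86, a partner of a toll-like receptor relative, by 3.1. The list's mean level was 6.87 to 6.99 in dKO, against 8.91 to 9.48 in control, and its median log2 fold change was -2.38. Of 9 dendritic cell markers 2 fell, the lectin Cd209a by 1.79 and the antiviral surface protein Bst2 by 1.16, and 0 rose, with a mean level of 7.62 to 7.95 in dKO, against 8.43 to 8.82 in control. The part of these markers in the Ccr2 and Cx3cr1 values was not tested.

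**Figure D2:**
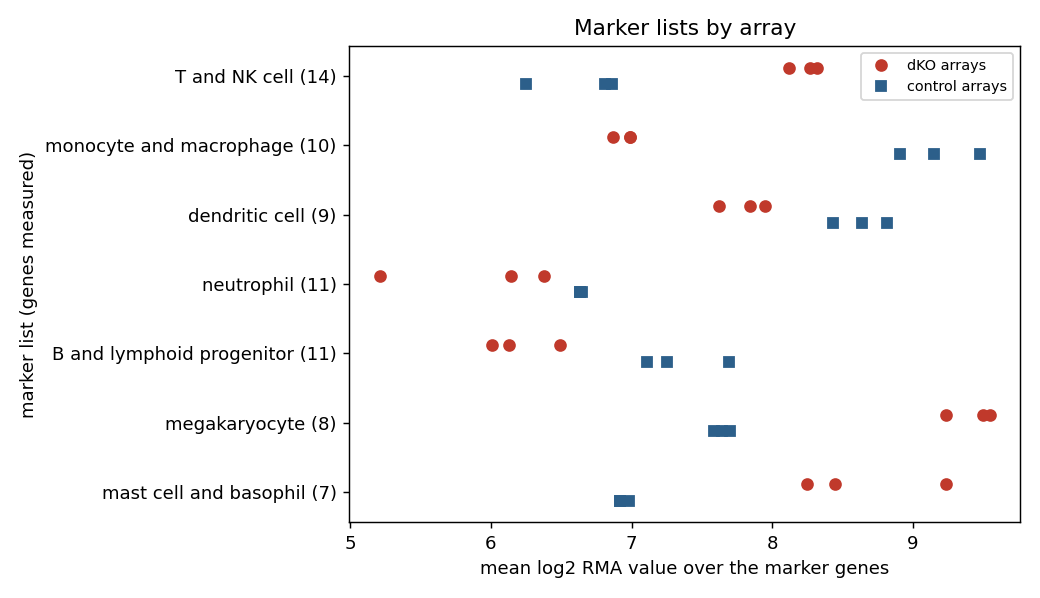
Mean log2 RMA value over the measured genes of each marker list, 1 point per array, with dKO arrays as red circles above control arrays as blue squares. The means of the monocyte, dendritic, neutrophil, and B and lymphoid progenitor lists are lower in all dKO arrays. Those of the T and NK, megakaryocyte and mast cell lists are higher in all dKO arrays.

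Ccr7, a receptor of cells bound for lymph nodes, had 4.43, 4.87 and 5.34 in dKO pools 1 to 3, against 4.57, 6.16 and 3.95 in control pools 1 to 3. The control arrays spanned all dKO arrays. Its log2 fold change was -0.01, with a wide 95% interval of -1.17 to 1.14 (limma, adjusted p = 0.995), and 0.62 without control 2.

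Ccr9, the receptor for Ccl25, had 5 probe sets with log2 fold changes from -0.31 to 0.70. The brightest stood at 7.44, 7.96 and 7.71 in dKO pools 1 to 3, against 6.91, 6.62 and 7.48 in control pools 1 to 3. It overlapped narrowly, between dKO 1 and control 3. Its log2 fold change was 0.70 ± 0.26 (SE; 95% interval 0.12 to 1.28) and did not pass (limma, adjusted p = 0.215). The other 4 probe sets had log2 fold changes of 0.33, 0.20, -0.26 and -0.31, and overlapped in each case (adjusted p from 0.539 to 0.777). In the B and lymphoid progenitor list 3 of 11 markers fell, Dntt by 4.99, Flt3 by 2.73 and Rag1 by 2.28, and 0 rose, against 2.03% of named genes that fell and 2.45% that rose, with a mean level of 6.01 to 6.49 in dKO, against 7.11 to 7.69 in control.

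**Figure D3:**
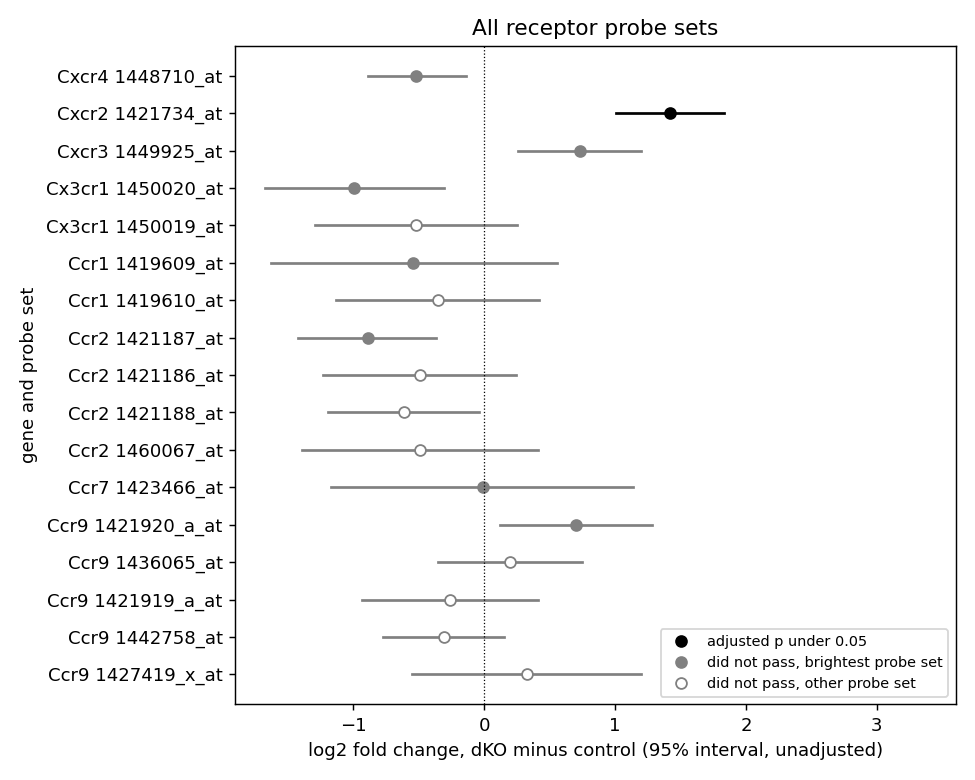
Log2 fold changes (dKO minus control) of all 17 receptor probe sets with unadjusted 95% intervals; black marks an adjusted p under 0.05, grey the others, and open circles the dimmer probe sets of a gene. Cxcr2 alone is black, the Ccr2 probe sets all lie left of 0, and the Ccr9 probe sets lie on both sides.

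Several ligands of Cxcr2, Cxcr3 and Ccr1 rose. Of 20 measured chemokines on the ligand list 7 rose and 0 fell, against 2.45% of named genes that rose and 2.03% that fell. Of 5 Cxcr2 ligands 3 rose. Cxcl3, an inflammatory neutrophil attractant, stood at 7.64, 6.44 and 4.72 in dKO pools 1 to 3, against 2.14, 1.88 and 2.26 in control pools 1 to 3 (log2 fold change 4.18 ± 0.60). Cxcl2 rose by 3.15 ± 0.31 and Ppbp, the platelet precursor of a Cxcr2 ligand, by 4.87 ± 0.41. Cxcl2 averaged 5.96 in dKO and 2.81 in control, so the filter on dim probe sets removed it. The control values of Cxcl3 lay near the lowest value on any array, 1.53. The dKO and control arrays of each of these 3 risen ligands did not overlap, against 23.4% of named genes, 12.7% upwards. The 3 were picked because they had passed, so their separation is not separate evidence. Cxcl1 differed between its probe sets: the brightest had a log2 fold change of 0.45 (adjusted p = 0.383) and another rose by 1.5 (adjusted p = 0.00928). Cxcl5 had a log2 fold change of 1.22 and did not pass (adjusted p = 0.207).

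Among Cxcr3 ligands, Cxcl10, an interferon-induced chemokine, rose by 3.71 ± 0.32 (limma, adjusted p = 0.000908), with 8.79, 8.18 and 7.70 in dKO pools 1 to 3, against 4.54, 4.94 and 4.06 in control pools 1 to 3. Cxcl11 (0.86) and Cxcl9 (0.67) did not pass. By their brighter probe sets the dKO arrays were above every control array, as in 12.7% of named genes. The nearest arrays lay 0.32 apart for Cxcl11 and 0.01 apart for Cxcl9. The dimmer probe sets had log2 fold changes of 0.2 for Cxcl11 and 0.23 for Cxcl9, and their arrays overlapped. The Ccr1 ligands Ccl3 and Ccl5 rose by 1.92 ± 0.27 and 1.52 ± 0.23, and lost their calls without both pools with Xist signal. Of 5 measured ligands assigned to Ccr1, these were the 2 that rose. Ccl6 (-0.86), Ccl9 (-0.81) and Ccl4 (0.50) did not pass. The ligands of Ccr2 were Ccl2 (0.07), Ccl7 (0.52), which also binds Ccr1, and Ccl12 (0.38). In limma 0 of 3 passed, against 4.49% of named genes, and 1 had an unadjusted p under 0.05, against 17.3%. Cx3cl1 (0.23) and Ccl25 (-0.35) did not pass. Pf4, counted among the 7 risen ligands but assigned to no single receptor here, rose by 1.53 ± 0.17. Pf4 and Ppbp are also counted among the risen megakaryocyte markers, so the ligand and marker counts share them. Ccl19 and Ccl21a, the ligands of Ccr7, were not analysed here.

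**Figure D4:**
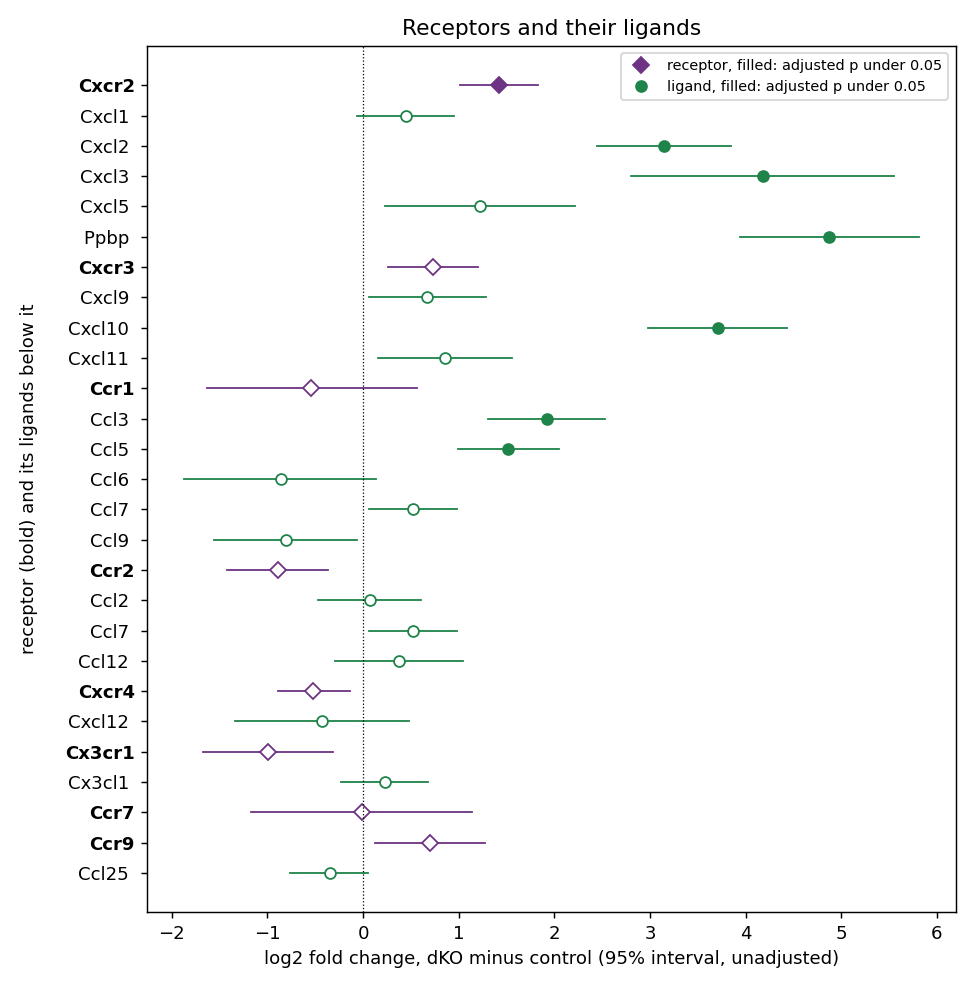
Log2 fold changes (dKO minus control) with unadjusted 95% intervals of each receptor (purple diamonds, bold names) and, below it, its measured ligands (green circles), each gene by its brightest probe set; filled symbols passed an adjusted p of 0.05. Cxcr2 is the one filled receptor, and filled ligands stand under Cxcr2, Cxcr3 and Ccr1, all to the right of 0.

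Of 14 other measured chemokine receptors 0 passed in limma, against 4.49% of named genes, and 3 had an unadjusted p under 0.05, against 17.3%. The median log2 fold change was 0.27. The nearest were Cxcr6, a receptor of T, NK and innate lymphoid cells (1.07, adjusted p = 0.0729), and Ccrl2, a chemerin-binding receptor without known signalling of its own (0.74, adjusted p = 0.0761). In both the dKO arrays were above every control array, as in 12.7% of named genes. Both genes passed when adjusted over 1 probe set per gene. Ackr3 passed downwards without control 2 alone. That array, at 2.65, was the control array within the dKO range of 2.59 to 2.78, and these values are dim.

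Several receptor genes are neighbours on chromosome 9. In the order of the RefSeq assembly the cluster includes, in turn, Ccr9, Fyco1, Cxcr6, Xcr1, Ccr1, Ccr1l1, Ccr3 and Ccr2. The log2 fold changes of its measured receptors along that order were 0.70 for Ccr9, 1.07 for Cxcr6 and -0.15 for Xcr1, a dendritic cell receptor. They were -0.54 for Ccr1, 0.28 for Ccr1l1, 0.54 for Ccr3, an eosinophil and basophil receptor, and -0.89 for Ccr2. Values along the cluster lay on both sides of 0. Of these 7, 0 passed in limma, against 4.49% of named genes, and 3 were under an unadjusted p of 0.05, against 17.3%. Ccr2 and Cxcr6 passed in opposite directions when adjusted over 1 probe set per gene. Fyco1 is no chemokine receptor. Outside this cluster Ccr8, the next coding gene after Cx3cr1, had a log2 fold change of 0.62 (adjusted p = 0.438), and Ccrl2 lies next to the lactoferrin gene Ltf, which had one of -0.41 (adjusted p = 0.459).

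Signalling genes behind the receptors did not pass in the main comparison. Of 15 genes from the G protein subunit Gnai2 to the Rac activator Dock2, 0 passed in limma, against 4.49% of named genes. An unadjusted p under 0.05 was found for 3, against 17.3% of named genes, and log2 fold changes ran from -0.41 to 0.69. The smallest p belonged to Ptk2b, a focal adhesion kinase relative (0.69, adjusted p = 0.122), and to Gng2, a G protein gamma subunit (-0.41, adjusted p = 0.308). Of 14 genes that switch receptors off, 0 passed in limma, against 4.49% of named genes. An unadjusted p under 0.05 was found for 4, against 17.3% of named genes. Rgs18, an RGS protein gene of platelets and megakaryocytes, stood at 10.49, 10.28 and 9.90 in dKO pools 1 to 3, against 9.51, 9.20 and 9.30 in control pools 1 to 3. Its log2 fold change was 0.88 (adjusted p = 0.0543), and its second probe set rose by 1.04 (adjusted p = 0.0235). Rgs19, another RGS protein gene, had a log2 fold change of -0.62 (adjusted p = 0.189). Rgs2, an RGS protein gene named after its values were seen, had log2 fold changes of -1 to -0.67 over 4 probe sets (limma, adjusted p from 0.0532 to 0.196). In each, all dKO arrays lay below all control arrays, as for 10.6% of all probe sets.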

How the data were processed

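RNA of each sorted pool was extracted with Trizol and amplified in 2 rounds, per the labels' protocols. The authors deposited log2 values, 1 per probe set and array, obtained with RMA according to the submitters' processing notes. RMA subtracts background, normalizes and summarizes probes, and shrinks differences of dim probe sets. The sources used here give neither its version nor whether it was run on all arrays at once, and detection calls were not used. After removal of 64 control probe sets, 45037 were tested. The platform annotation gave 34945 of them a single symbol, and 34741 of these were matched by gene identifier to RefSeq (GRCm38.p6) to update symbols. A gene was taken by its probe set with the highest mean.

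Groups came from the titles. dKO was compared with control in limma 3.58.1 (R 4.3.3, lmFit and eBayes, group alone in the model). The test was two-sided, p-values were adjusted over all probe sets by Benjamini-Hochberg, and the threshold was 0.05. Intervals are unadjusted. Replicates are separate pools, and 3 arrays per group limit the precision. Replicate numbers did not pair the arrays (correlations of deviations 0.06, -0.03 and 0.01). The steps were tested on simulated data. Members and lists were chosen with earlier results of these data known. Genes were named by this rule: all receptor probe sets, list genes that passed or, with none, the 2 with the smallest p, up to 4 markers per list, the sort gate, the targeted genes and the 3 profiles most like a receptor that passed. Cd8a, Ltf, Rgs2 and Ackr3, and the ligands and cluster receptors that did not pass, were named outside it after their values were seen. Alternatives covered a filter on dim probe sets, the unit tested, scaling, variance model, array weights, a replicate block, thresholds, the pools with Xist signal and each array left out. Figures were drawn with matplotlib 3.10.9.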

Additional observations from a re-analysis of the deposited data

How the results depend on the processing

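Cxcr2 was higher and passed in all 11 other settings (log2 fold change 1.40 to 1.52, limma adjusted p from 0.0011 to 0.0406) and with each array left out (1.33 to 1.5). Among those settings, passing at a threshold of 0.1 was fixed by passing at 0.05. With the replicate block Cxcr2 was at 1.42 (adjusted p = 0.0182), and the block changed no other call on a receptor, ligand, signalling or desensitisation gene. Over all probe sets the block gave 656 higher and 596 lower. The number of receptor genes called lower, 0 as reported, was 1 (Ccr2) under the filter on dim probe sets, with 1 probe set per gene, with array weights, at a threshold of 0.1 and without dKO 2, and 2 (Ccr2 and Cxcr4) with a trended and robust variance; with arrays left out it ran from 0 to 1. The same numbers held for receptor probe sets. Probe sets that did not pass changed sign without both pools with Xist signal: Ccr1 (0.05), Ccr7 (0.05) and 2 of Ccr9 (0.04 and -0.19). With single arrays left out, the Ccr1 probe sets ran from -1.1 to 0.02 and from -0.71 to 0.01, Ccr7 from -0.48 to 0.62, and those 2 Ccr9 probe sets from -0.46 to 0.08, positive without dKO 1, and from -0.06, without dKO 1, to 0.71.

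Of the other chemokine receptors, 1 was higher (Cxcr6) under the filter, without the pools with Xist signal or without control 1, and 2 (Cxcr6 and Ccrl2) with 1 probe set per gene, with the mean of probe sets or at a threshold of 0.1; with arrays left out the number higher and the number lower each ran from 0 to 1, the lower one being Ackr3 without control 2. The chromosome 9 list, which also counts the more distant Ccrl2, gave the same numbers higher, and 1 lower (Ccr2) in the settings in which Ccr2 passed; with arrays left out both ran from 0 to 1. Among genes that switch receptors off, 1 was higher (Rgs18) under the filter, with 1 probe set per gene, the mean of probe sets, quantile normalization, the trended variance, array weights, a threshold of 0.1 or without dKO 3 (0 to 1 with arrays left out), and 1 lower (Rgs2) with the mean of probe sets. The ligands gave 5 to 8 higher and 0 lower throughout, 7 with each array left out. Over all probe sets, 822 higher and 800 lower became 1238 and 1271 with array weights, 295 and 220 at a threshold of 0.01, 293 and 272 without the pools with Xist signal, and 382 to 861 and 279 to 611 with single arrays left out, fewest without control 2 (382 and 279). The lower count was 519 with 1 probe set per gene and 1440 at a threshold of 0.1. Fewer arrays or fewer tested rows are part of those settings; for other moves the cause was not tested. Probe sets near the lower end, such as those of Ccr1 and Ccr7, have differences that RMA shrinks.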
